A study of Mus musculus with 6 samples.

Results

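The genes described are 10 genes of the MHC class II antigen presentation pathway in mouse Th9 cells studied by RNA sequencing. Th9 cells are CD4 T helper cells that make IL-9. The 10 genes were taken by symbol from the 23183 genes counted in each library. They are Cd74, Ctss, Ciita, H2-Ab1, H2-Aa, H2-Eb1, H2-DMa, H2-DMb1, H2-Oa and H2-Ob. The list was chosen by pathway with the CPM and fold changes of this SPC comparison known. Its fold changes, p-values and calls are therefore descriptions, and they support nothing on their own.

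The 6 libraries form 2 groups of 3, which differ in sphingosylphosphorylcholine (SPC), a lysophospholipid. Cells of the SPC group were cultured with 30 µM SPC, and control cells without it. In both groups wild-type naive CD4+ T cells, enriched by a magnetic kit from spleen (strain C57BL/6N), were stimulated with plate-bound anti-CD3e and soluble anti-CD28, IL-4, TGF-β1 and anti-IFN-γ. The cells were taken on day 3. Each group has libraries 1, 2 and 3 by its titles, and the series text describes 3 independent experiments. Mouse age and the number of mice per library are not stated in the sources used here.

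MHC class II molecules are pairs of an alpha and a beta chain that show peptides from endocytosed protein to CD4 T cells. They are made mainly by B cells, dendritic cells and macrophages. The invariant chain, encoded by Cd74, folds with the new chains and plugs their groove. Cathepsin S, encoded by Ctss, cuts the invariant chain down, and the DM heterodimer (H2-DMa with a DM beta chain) then exchanges the remaining fragment for peptide, while the DO heterodimer (H2-Oa with H2-Ob) restrains DM. CIITA is the transactivator of the class II genes. It acts on a conserved promoter module of X1, X2 and Y boxes, bound by the RFX complex, CREB family factors and NF-Y. IFN-γ, which the culture neutralised, is a main inducer of Ciita outside antigen-presenting cells. Mice of the C57BL/6 background carry a defective H2-Ea gene, so they make no E alpha chain to pair with the H2-Eb1 product.

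The promoter stretches below show letters of this module in members that have them, and 2 members without the pair of motifs for contrast. They come from RefSeq windows of 300 bases around gene starts (GRCm38.p6, the assembly also called mm10), and 7 of the 10 genes matched a window. Those without an entry are Cd74, Ciita and H2-Ab1. Capitals mark TGATG or TGACG, letters of the X2 box, and ATTGG, the core of the Y box. In the last sequence they mark the letters of GAAA, any 2 bases and GAAA again, a core of interferon-response elements.
H2-Aa (chr17:34287861-34287913, minus strand): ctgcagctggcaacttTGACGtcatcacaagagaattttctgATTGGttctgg
H2-Eb1 (chr17:34305765-34305818, plus strand): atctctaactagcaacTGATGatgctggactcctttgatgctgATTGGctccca
H2-Ob (chr17:34238810-34238858, plus strand): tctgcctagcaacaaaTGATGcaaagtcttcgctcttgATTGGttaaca
H2-DMb1 (chr17:34153086-34153140, plus strand): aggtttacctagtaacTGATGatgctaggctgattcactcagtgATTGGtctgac
H2-Oa (chr17:34092292-34092346, plus strand): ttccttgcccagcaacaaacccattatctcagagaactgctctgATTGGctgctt
Ctss (chr3:95526743-95526797, plus strand): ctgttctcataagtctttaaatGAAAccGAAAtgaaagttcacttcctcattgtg

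The windows of H2-Aa, H2-Eb1, H2-Ob and H2-DMb1 held TGATG or TGACG followed by ATTGG with starts 15 to 35 bases apart, and that of H2-Oa held ATTGG without such an X2 match. Of all 32851 windows, read on both strands, 1.84% held the pair of motifs, 37.4% held ATTGG and 3.44% held the spaced GAAA repeat. The Ctss window held neither the pair nor ATTGG. H2-DMa had 2 windows, neither with the pair and 1 with ATTGG. The letters searched were chosen after these sequences had been seen, and a match is not evidence of binding.

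The libraries held 22002050 to 33049997 counts, so that 1 count was worth 0.0304 to 0.0455 CPM, the count scaled to library size. CPM values here also carry the TMM scaling, a trimmed mean of log ratios between libraries. Of the 10 genes, 8 passed the filter on low counts (at least 10 counts in a library of median size, in 3 libraries), and Ciita and H2-Aa did not. In the edgeR test with group as its single term, 59 of 12226 genes differed (0.483%, Benjamini-Hochberg adjusted p under 0.05), and none of the 8 members was among them. At an unadjusted p under 0.05 there were 2 members, Cd74 and Ctss, against 10.2% of all tested genes, and DESeq2 called the same 2 genes against 1.66% of the genes it had counts for. The library number was also used as a block, which takes same-numbered libraries as pairs. That pairing was read from the numbering and from shared deviations across genes, and the titles do not state it. With the block, 866 genes differed (7.08%). Among members Cd74 and Ctss were then higher with SPC, against 4.02% of all genes called higher, and H2-Ab1 was lower, against 3.07% called lower. The median log2 fold change was 0.24 over the 8 members and 0.00193 over all tested genes.

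The 10 genes differed in level by several orders of magnitude. Per kilobase of the longest annotated transcript, Cd74 had the highest level, with 58 ± 6.56 CPM per kilobase in SPC and 42.9 ± 3.12 in control libraries (SD, n = 3 each). Its mean over the 6 libraries was above that of 88.9% of the tested genes with a known length. Ctss came next, at 27.4 ± 1.75 CPM per kilobase with SPC and 20.4 ± 0.654 in control. H2-DMa followed with 17.1 ± 1.08 and 15 ± 0.743 CPM per kilobase in SPC and control libraries, and H2-Ab1 with 10.8 ± 5.20 and 15.1 ± 7.32.

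The ranges of H2-DMa and H2-Ab1 overlapped in both groups, so these neighbours did not differ beyond their spread. Those of Cd74 and Ctss did not overlap. Below them stood H2-Oa, at 3.81 ± 0.804 CPM per kilobase with SPC and 3.11 ± 0.808 in control, and H2-DMb1, at 1.21 ± 0.383 and 1.58 ± 0.0856 in the same groups. H2-Eb1 and H2-Ob lay under 1 CPM per kilobase in every library and overlapped each other. Ciita and H2-Aa were at the bottom. With the median transcript length in place of the longest, Ctss and H2-DMa changed places and the order was otherwise the same.

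**Figure D1:**
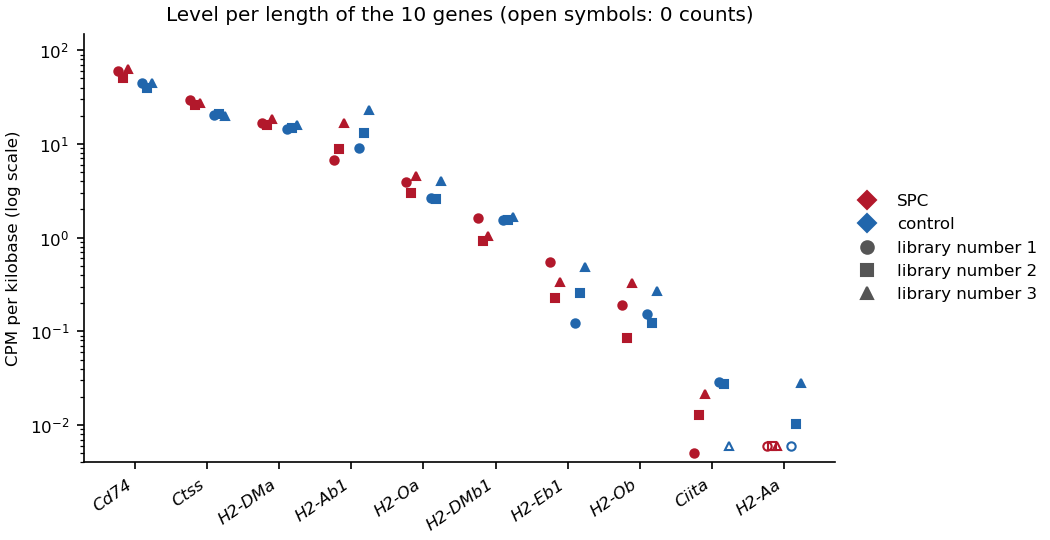
Level of each of the 10 genes in CPM per kilobase of its longest annotated transcript, on a log axis, with 1 symbol per library, red for SPC and blue for control, and open symbols at the bottom for 0 counts. Cd74 had the highest mean, 58 CPM per kilobase with SPC and 42.9 in control, and H2-Aa had no count in any SPC library.

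Cd74 (chromosome 18, 60803848 to 60812652, plus strand, mm10), the invariant chain gene, had 85.2, 71.3 and 88.7 CPM in SPC libraries 1, 2 and 3, against 62.9, 55.4 and 63.1 CPM in control libraries 1, 2 and 3. All SPC libraries stood above all control libraries, and library 2 was the lowest of its group on both sides. Groups that do not overlap, with SPC higher, were found for 8.67% of all tested genes. The mean was 81.7 ± 9.25 CPM with SPC and 60.5 ± 4.40 CPM in control, a log2 fold change of 0.43 ± 0.10 (SE, edgeR adjusted p = 0.117, and 0.00155 with the block). DESeq2 gave the same log2 fold change with an adjusted p of 0.00979. Within the numbered pairs the SPC library was 1.35, 1.29 and 1.41 times its control.

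Ctss (chromosome 3, 95526786 to 95556403, plus strand), the gene of the protease that trims the invariant chain, had 39.6, 35 and 36.7 CPM in the SPC libraries and 27.7, 28.5 and 26.7 CPM in the control libraries. Here too the groups did not overlap, and the control libraries lay within 2 CPM of each other. The mean was 37.1 ± 2.37 CPM with SPC and 27.7 ± 0.886 CPM in control, a log2 fold change of 0.42 ± 0.08 (edgeR adjusted p = 0.0636, and 0.00551 with the block). The pairs gave ratios of 1.43, 1.23 and 1.37.

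The ratio of Cd74 to Ctss moved little. On the log2 scale it averaged 1.14 ± 0.13 in SPC and 1.13 ± 0.15 in control libraries (SD, n = 3 each). The genes whose profile over the 6 libraries was closest to that of Cd74, by the root mean square difference of centred log2 CPM among 9458 genes that averaged 5 CPM or more, were Arrdc2 (0.051), Chst12 (0.062) and Lta (0.062), the last of which encodes lymphotoxin alpha. For Ctss they were Ifrd1 (0.028), Tnfaip8l1 (0.041) and Prps1 (0.043). The median difference over all genes compared was 0.270 for Cd74 and 0.245 for Ctss. None of the 3 nearest of either gene belongs to the class II pathway. Besides Cd74 and Ctss, only H2-Ab1 and H2-DMa of the members averaged 5 CPM or more. With so few candidates, that absence says nothing about a shared pattern.

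**Figure D2:**
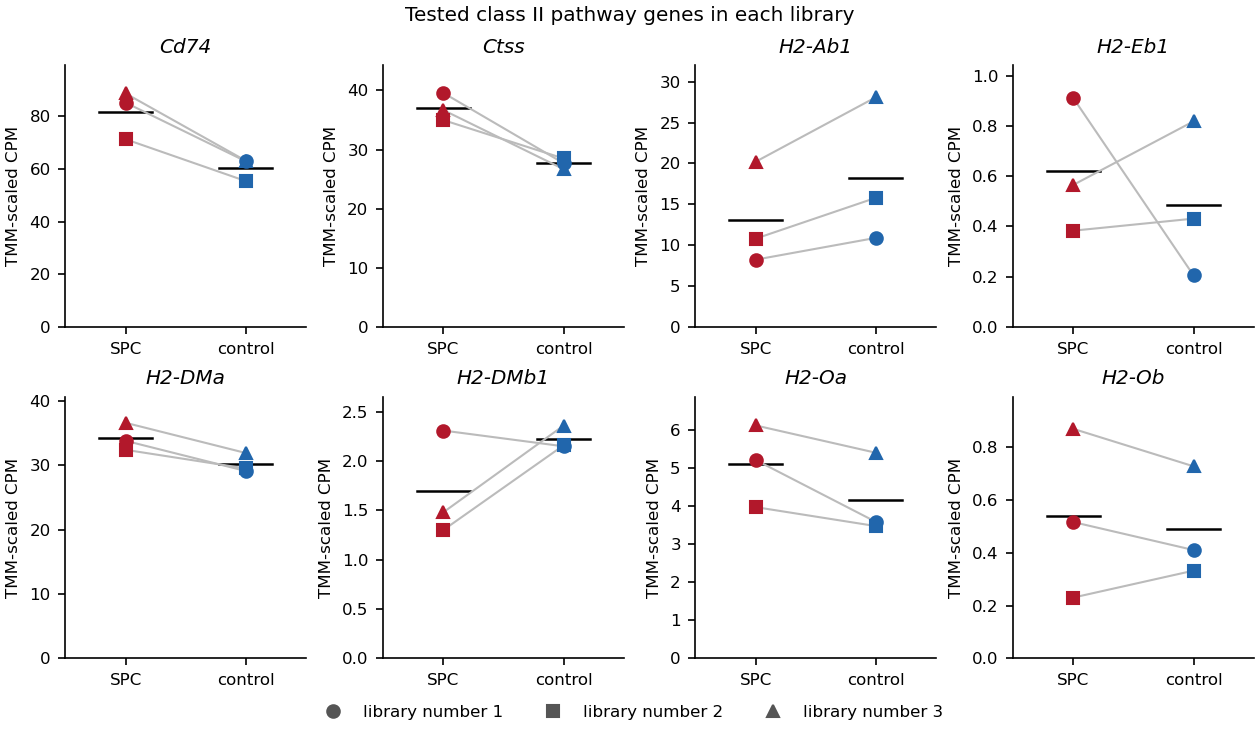
TMM-scaled CPM of the 8 tested genes in each library, with SPC on the left and control on the right of each panel, grey lines joining libraries of the same number and black bars for group means. Cd74 and Ctss were higher with SPC in all 3 pairs, while H2-Ab1 was lower in all 3.

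Of the classical chains, which bind and display the peptide, H2-Ab1 was the main one detected. H2-Ab1 (chromosome 17, 34257689 to 34269419, plus strand), the beta chain gene of the I-A molecule, had 8.23, 10.8 and 20.2 CPM in SPC libraries 1, 2 and 3, against 10.9, 15.8 and 28.1 CPM in control libraries 1, 2 and 3. The groups overlapped, because library 3 was more than 1.5 times library 2 in both groups. Within each pair, however, the SPC library was lower, at 0.757, 0.685 and 0.719 times its control. A gene was lower in all 3 pairs in 22% of tested genes.

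The mean of H2-Ab1 was 13.1 ± 6.31 CPM with SPC and 18.2 ± 8.87 CPM in control, with a log2 fold change of -0.48 ± 0.39 (edgeR adjusted p = 0.767). With the block the fold change was -0.48 ± 0.08 (edgeR adjusted p = 0.00662). DESeq2 without a block gave an adjusted p of 0.985. In the group-only test the size rested on single libraries, being -0.04 when control library 3 was left out, -0.93 when SPC library 3 was, -0.23 for SPC library 1 and -0.74 for control library 1. In the blocked test it lay between -0.51 and -0.43 when a numbered pair was left out, with adjusted p-values of 0.000114, 0.0327 and 0.029 without pair 1, 2 and 3. These fits hold fewer libraries and were added after the data were seen. They called 2112, 699 and 563 genes in the same order, against 866 with all libraries. A smaller p in them is therefore not stronger evidence for H2-Ab1. By the same measure of profile, computed for this gene after its values were seen, the nearest genes were Cxcr4 (0.047), Smtnl2 (0.079) and Jag2 (0.087), against a median of 0.607. Like H2-Ab1, all 3 rose from library 1 to library 3 in both groups. Cxcr4 encodes a chemokine receptor that is also known as a partner of CD74. It had 6.83, 9.69 and 16.9 CPM in the SPC and 9.54, 13.4 and 22.9 CPM in the control libraries.

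H2-Aa (chromosome 17, 34282744 to 34287823, minus strand), the gene of the alpha chain that pairs with the H2-Ab1 product, had 0 counts in all 3 SPC libraries and 0, 1 and 2 counts in the control libraries. A count of 0 allows up to 3 counts, or 0.0911 to 0.130 CPM in the SPC libraries. Over all 6 libraries there were 3 counts of H2-Aa and 2429 of H2-Ab1. In antigen-presenting cells both chains are made together as a heterodimer. In the annotation used here (GENCODE M21) no exon of another gene overlaps those of H2-Ab1 or H2-Aa (0% of the exonic bases of each). Of the 50-base stretches along the longest transcript, 0% for H2-Ab1 and 0.599% for H2-Aa recur in transcripts of other genes, for H2-Aa mostly Vmn1r221. The annotation that the authors counted with was not given, and the cause of the unequal counts was not tested.

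H2-Eb1 (chromosome 17, 34305867 to 34316674, plus strand), the beta chain gene of the I-E molecule, had 30, 10 and 13 counts in the SPC and 6, 13 and 18 in the control libraries. These are 0.911, 0.383 and 0.565 CPM with SPC, against 0.205, 0.431 and 0.818 CPM in control. SPC library 1 was the highest and control library 1 the lowest of all 6, while the other pairs ran the other way, with SPC lower. The log2 fold change of 0.44 ± 0.52 (edgeR adjusted p = 0.857) became -0.37 without both libraries numbered 1. H2-Ab1 made up 90% to 97.3% of the summed CPM of the classical chains in SPC and 96.9% to 98.1% in control libraries.

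The transactivator was barely detected. Ciita (chromosome 16, 10480059 to 10528418, plus strand) had 1, 2 and 3 counts in the SPC libraries and 5, 5 and 0 in the control libraries. No difference could be seen at this depth, and no log2 fold change was fitted for it or for H2-Aa.

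The chains that edit the peptide behaved less uniformly. H2-DMa (chromosome 17, 34119541 to 34139101, plus strand), the alpha chain gene of DM, had 33.8, 32.4 and 36.6 CPM in the SPC and 29.1, 29.5 and 31.9 CPM in the control libraries. The groups did not overlap, by a narrow margin, with a log2 fold change of 0.19 ± 0.08 (edgeR adjusted p = 0.498, and 0.139 with the block). Of its exonic bases, 10.4% lie in exons of Brd2 on the opposite strand, and the strand setting of the authors' counting is not given in the sources used here. Brd2, which encodes a bromodomain protein, averaged 391 ± 6.93 CPM with SPC and 376 ± 21.4 CPM in control (log2 fold change 0.06 ± 0.07). Its part in the H2-DMa counts was not tested.

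H2-DMb1 (chromosome 17, 34153072 to 34160230, plus strand), a DM beta chain gene, had 2.31, 1.30 and 1.48 CPM with SPC, against 2.15, 2.16 and 2.36 CPM in control. SPC library 1 lay among the control libraries and the other SPC libraries below them (log2 fold change -0.37 ± 0.25, edgeR adjusted p = 0.703, and 0.360 with the block). H2-DMb2, its neighbouring copy, had 2.46, 2.64 and 3.87 CPM with SPC and 3.39, 3.48 and 4.41 CPM in control (-0.33 ± 0.22, edgeR adjusted p = 0.695). Along the longest H2-DMb1 transcript, 27.2% of 50-base stretches also occur in another gene, mostly H2-DMb2, so counts can be split between these copies. Summed, they gave 4.77, 3.94 and 5.35 CPM in the SPC and 5.54, 5.64 and 6.77 CPM in the control libraries. The sum was formed after the values were seen.

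H2-Oa (chromosome 17, 34092340 to 34095234, plus strand), the alpha chain gene of DO, had 5.22, 3.98 and 6.13 CPM with SPC, against 3.59, 3.48 and 5.41 CPM in control. It was higher with SPC in all 3 pairs, as were 21.8% of tested genes, but the groups overlapped (log2 fold change 0.30 ± 0.23, edgeR adjusted p = 0.736, and 0.234 with the block). Exons of BC051537 on the opposite strand cover 22.8% of its exonic bases, and that gene had 2 counts in all in each group. H2-Ob (chromosome 17, 34238903 to 34254414, plus strand), the beta chain gene of DO, had 17, 6 and 20 counts in the SPC and 12, 10 and 16 in the control libraries (0.15 ± 0.51, edgeR adjusted p = 0.954). Its direction turned to -0.31 without SPC library 3 and to -0.07 without control library 2.

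**Figure D3:**
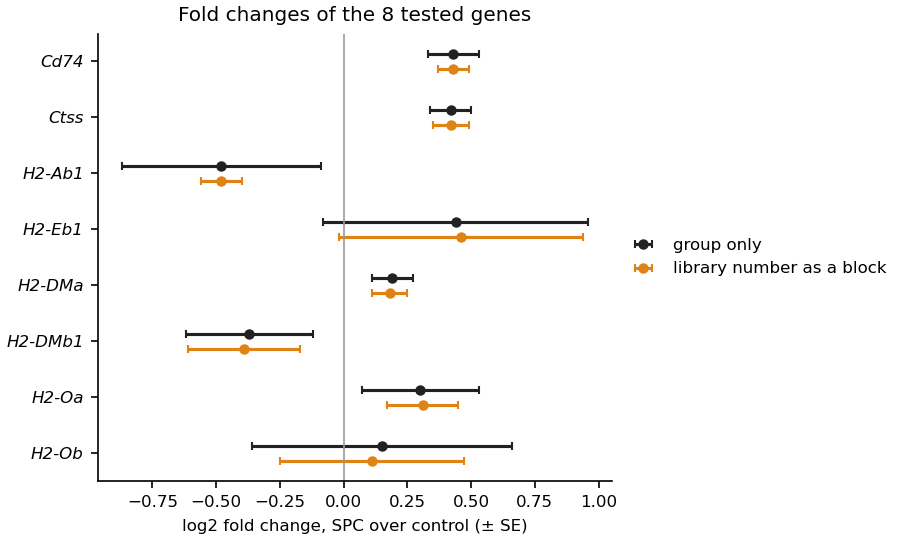
Log2 fold change of SPC over control, with its SE, for the 8 tested genes in the edgeR fit with group only (black) and with the library number as a block (orange). The block left the estimate of H2-Ab1 at -0.48 and narrowed its SE, which was 0.39 with group only and 0.08 with the block.

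The invariant chain and its protease were next set against the classical chains within each library. The log2 ratio of Cd74 to the summed CPM of H2-Ab1, H2-Aa and H2-Eb1, with 0.5 CPM added to both, was 3.15, 2.62 and 2.07 in SPC libraries 1, 2 and 3, against 2.45, 1.74 and 1.11 in control libraries 1, 2 and 3. The ratio was higher with SPC within each pair, by 1.62, 1.84 and 1.95 times, although the groups overlapped. The mean difference was 0.85 on the log2 scale, with SDs of 0.54 for SPC and 0.67 for control. For Ctss the same log2 ratio was 2.06, 1.60 and 0.81 in the SPC and 1.29, 0.79 and -0.12 in the control libraries, a mean difference of 0.83.

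With all 7 chain genes as the denominator the differences were 0.43 for Cd74 and 0.42 for Ctss. H2-DMa was then the largest part of the sum in every library. Leaving out control library 3 gave 0.52 for Cd74 and 0.45 for Ctss, and leaving out SPC library 1 gave 0.55 for Ctss. No test was made on these ratios, because the contrast chose the genes, and an exact permutation test of 3 against 3 libraries cannot give a p below 0.1.

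**Figure D4:**
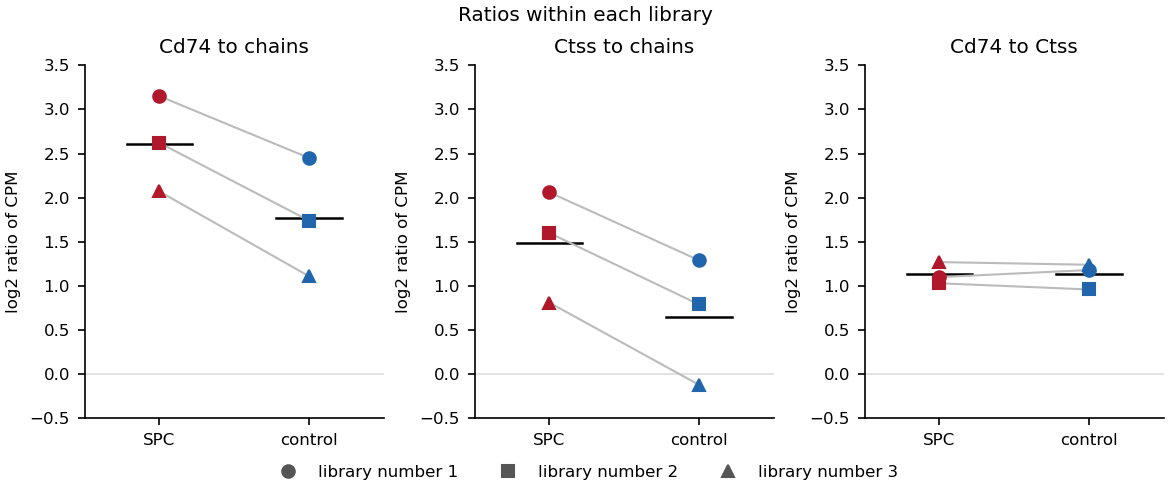
Log2 ratios within each library of Cd74 and of Ctss to the summed classical chains, and of Cd74 to Ctss, with SPC left of control, grey lines joining same-numbered libraries and black bars for group means. The mean difference was 0.85 for Cd74 to chains and 0.83 for Ctss to chains, and the Cd74 to Ctss ratio averaged 1.14 with SPC and 1.13 in control.

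Other genes of the pathway were taken from lists that were drawn up with the earlier results known. Their counts of calls stand beside 0.483% of all tested genes called with group only. With the block, 4.02% of all tested genes were called higher and 3.07% lower. The factors that bind the class II promoter were present, among them Rfx5, a subunit of the RFX complex, with 26.9 CPM on average in SPC and 24.7 in control libraries (log2 fold change 0.13 ± 0.09). Of the 15 tested genes of class II transcription none was called with group only, 2 were lower with the block, and their median log2 fold change was -0.04. Crem, a CREB family gene, had 17.4, 20.5 and 23.5 CPM with SPC, against 32.3, 40.5 and 54.3 CPM in control (-1.05 ± 0.19, edgeR adjusted p = 0.0538, and 4.04e-05 with the block). Nlrc5, the transactivator of class I genes and a relative of CIITA, averaged 6.96 CPM with SPC and 9.62 CPM in control (-0.47 ± 0.17, edgeR adjusted p = 0.367, and 0.0235 with the block). Nfyb, an NF-Y subunit gene, and Ep300, a histone acetyltransferase gene, had log2 fold changes of -0.22 ± 0.09 and -0.21 ± 0.12 and were called in neither fit.

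Of the 17 tested regulators of Ciita none was called with group only, and with the block Irf4 was higher and Socs1 lower (median -0.02). Irf4 encodes a transcription factor of activated lymphocytes and had a log2 fold change of 0.21 ± 0.06 (edgeR adjusted p = 0.247, and 0.0184 with the block). Socs1, an inhibitor of JAK and STAT signalling, had 97.6, 93.0 and 91.8 CPM with SPC, against 119, 124 and 125 CPM in control (-0.38 ± 0.07, edgeR adjusted p = 0.0514, and 0.00226 with the block). The receptor genes Ifngr1 and Il4ra, for IFN-γ and IL-4, had log2 fold changes of -0.29 ± 0.11 and -0.16 ± 0.07. They were called in neither fit (edgeR adjusted p = 0.413 and 0.466, and with the block 0.0502 and 0.0839).

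Ctss was compared with the other cathepsins and their inhibitors. Of 12 tested genes 1 was called with group only, Cst7, which encodes the inhibitor cystatin F and fell to 7.32, 7.77 and 7.95 CPM with SPC, against 14.3, 12.9 and 11.5 CPM in control (-0.75 ± 0.12, edgeR adjusted p = 0.0435, and 0.00226 with the block). In the group-only test its adjusted p lay between 0.0502 and 0.247 without any 1 library, so the call was lost each time. Its log2 fold change stayed between -0.82 and -0.66 in these fits, which hold fewer libraries. With the block Ctsw and Ctsf were also called, as higher with SPC, with log2 fold changes of 0.49 ± 0.23 and 1.56 ± 0.38 (edgeR adjusted p = 0.515 and 0.136, and with the block 0.0127 and 0.0399). Ctsb, Ctsd and Ctsz had the highest mean CPM of this list, not scaled for transcript length. Their log2 fold changes were -0.12 ± 0.08, 0.14 ± 0.09 and 0.10 ± 0.08, and none was called in either fit. The median over the 12 genes was -0.0036.

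Among the 9 tested partner genes of class II presentation none was called with group only and 1 was higher with the block, and the median log2 fold change was 0.21. Cd40, a costimulatory receptor of antigen-presenting cells that activated T cells can also make, had 8.38, 7.12 and 7.21 CPM with SPC and 4.28, 2.95 and 1.64 CPM in control. Cd40 was the gene called with the block (1.34 ± 0.28, edgeR adjusted p = 0.0869, and 0.00161 with the block). Ifi30, which encodes the thiol reductase of class II processing, averaged 57.5 CPM with SPC and 55.9 CPM in control. Cd80, a costimulatory ligand gene, had 5.19, 5.59 and 4.78 CPM with SPC and 3.39, 3.75 and 3.91 CPM in control, and was called in neither fit (0.50 ± 0.15, edgeR adjusted p = 0.244, and 0.0561 with the block). Nor was Lgmn, which encodes an asparaginyl endopeptidase of the lysosome (0.44 ± 0.21, edgeR adjusted p = 0.534). H2-Ea-ps had no count in any library.

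Of the 5 tested ligands and partners of CD74, Cd44, its signalling partner, was higher and Cxcr4 lower with the block (adjusted p = 0.0140 and 0.0102 in edgeR), and none was called with group only. Mif, which encodes a ligand of CD74, averaged 596 CPM with SPC and 646 CPM in control (-0.11 ± 0.08). Cxcr2, a chemokine receptor gene, was at 2.7 CPM or less in every library (-0.41 ± 0.29, called in neither fit). Of 3 tested genes for class II binding receptors and their other ligands, none was called with group only, and with the block Lag3 was lower and Lgals3 higher. Lag3, an inhibitory receptor gene, had 14.0, 13.3 and 19.3 CPM with SPC and 22.2, 23.2 and 33.1 CPM in control (-0.75 ± 0.19, edgeR adjusted p = 0.158, and 0.000291 with the block). Cd4 was not called in either fit (0.06 ± 0.06).

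The class I pathway, which displays cytosolic peptides and is active in all T cells, differed little. Of 21 tested genes none was called with group only and H2-M3 was higher with the block, and the median was -0.01. H2-K1 and H2-D1, the classical class I heavy chains, had log2 fold changes of 0.04 ± 0.07 and -0.05 ± 0.06. B2m, the class I light chain gene, had 260, 270 and 270 CPM with SPC, against 315, 305 and 291 CPM in control, and was called in neither fit (-0.19 ± 0.07, edgeR adjusted p = 0.333, and 0.0564 with the block). Nor were Tapbp and Tapbpl, the genes of tapasin and its relative (0.15 ± 0.12 and 0.21 ± 0.09).

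Markers of the labelled cells and of other cells were read beside these values. All 13 T cell markers were tested, and their summed level was 3076 to 3296 CPM in SPC and 3094 to 3160 CPM in control libraries. None was called with group only, and with the block Cd5 was higher (log2 fold change 0.36 ± 0.07, edgeR adjusted p = 0.0597, and 0.00157 with the block) and Cd2 lower (-0.44 ± 0.08, edgeR adjusted p = 0.0598, and 0.00144 with the block). The B cell list summed to 6.55 to 7.87 CPM in SPC and 5.23 to 7.23 CPM in control libraries, with Ms4a1 at 0 in all libraries and Cd79a at 0.304 CPM or less. Of its 14 genes 3 were tested, led by Cd79b, which had 4.59, 3.6 and 4.09 CPM with SPC and 3.22, 3.35 and 3.41 CPM in control. The sum of 14 monocyte and macrophage markers was 2.11 to 2.56 CPM in SPC and 2.15 to 2.59 CPM in control libraries, with Lyz2 at 0 in all SPC libraries. Its highest member, Cd68, had 1.76, 1.53 and 2.09 CPM with SPC, against 1.47, 1.09 and 1.45 CPM in control. Cd68 was called in neither fit (0.42 ± 0.24, edgeR adjusted p = 0.628, and 0.297 with the block). Adgre1 ran the other way, with 0.182, 0.153 and 0.217 CPM with SPC and 0.41, 0.697 and 0.818 CPM in control.

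The 12 dendritic cell markers summed to 294 to 391 CPM in SPC and 242 to 315 CPM in control libraries. Nearly all of this came from Cd83, Ccr7 and Batf3, which activated T cells also express. Itgax stayed at 0.0869 CPM or less, and Clec9a, Cd209a and Clec10a were at 0 in all libraries. Other markers of the list were detected at low levels. Zbtb46 had 3.58, 4.17 and 5.78 CPM with SPC, against 2.43, 3.22 and 2.95 CPM in control. Fscn1 had 1.27 to 3.5 CPM and Flt3 0.137 to 0.682 CPM over all libraries. Cd83 had 123, 140 and 160 CPM with SPC, against 95.7, 95.0 and 109 CPM in control (0.50 ± 0.10, edgeR adjusted p = 0.0869, and 0.000678 with the block). No marker of any other cell type was called with group only, and with the block Spib of the B cell list and Zbtb46, Ccr7 and Cd83 of the dendritic cell list were higher and Adgre1 of the macrophage list lower. The CD8 T cell, NK cell and erythroid and granulocyte lists each summed to under 3 CPM in every library. The part of other cells in the class II values was not tested. In bulk RNA, fewer cells of a type and less RNA per cell cannot be told apart.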

How the data were processed

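The authors deposited raw read counts per gene symbol for each library, and TopHat and the mm10 build were used, per the submitters' processing notes. The program that counted reads, its annotation and its strand setting were not given in the sources used here. The library kit marks strand, per the labels' protocols. Symbols were matched to GENCODE M21 for coordinates, overlaps and transcript lengths.

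Differences were tested in edgeR 4.0.16 under R 4.3.3 (quasi-likelihood F test, robust, TMM, filterByExpr with a minimum count of 10 and a minimum total of 15, group as the single term, Benjamini-Hochberg over 12226 genes, threshold 0.05). Each SE was obtained as the fold change (log2) over the square root of its F. The script was tested on simulated data. Alternatives were a replicate block, DESeq2 1.42.0, other scalings, no filter and leaving out libraries.

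Same-numbered libraries deviated together from their group means (correlations across genes of 0.413, 0.208 and 0.508, all above the limit of 0.1), so the numbers were taken as pairs. No replicate pair agreed within counting noise (chi-square per degree of freedom at least 4.99). The labels do not say whether each experiment used separate mice, so p-values measure the spread between these samples. Limits from 0 counts cover counting error only.

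The members and lists were chosen with earlier results of these data known. Named beside the 10 members are, in each other list, up to 4 tested genes with the smallest p and those called in either fit, plus the 3 genes nearest in profile to Cd74 and Ctss. The profile of H2-Ab1, Rfx5, Ifi30, H2-Ea-ps, Ctsb, Ctsz, H2-K1, H2-D1, Brd2, Fscn1, Flt3 and the summed DM beta genes were added after the values were seen. For markers the rule takes the 3 highest of each list and the defining genes; those not named enter the sums only, and 1 is not reported here.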

Additional observations from a re-analysis of the deposited data

How the results depend on the processing

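The count of 59 genes was 866 with the replicate block, 279 with DESeq2, 147 with no filter on low counts, and 6 to 66 when 1 library was left out. Without both libraries numbered 1, 2 and 3 it was 15, 0 and 38, and with the block added after the data were seen 2112, 699 and 563. The count of members called, 0 with group only and 0 in each fit without 1 library, was 3 with the replicate block, also without any numbered pair, 2 with DESeq2 and 1 (Ctss) with no filter. Cd74 kept a log2 fold change of 0.37 to 0.52 and Ctss of 0.37 to 0.50 over 18 alternatives each, with adjusted p-values of 4.85e-07 to 0.746 and 0.000237 to 0.817. H2-DMa, H2-DMb1 and H2-Oa kept their direction and were called under none of theirs. H2-Eb1, at 0.01 to 0.99 without 1 library, turned to -0.37 without both libraries numbered 1, with and without the block. H2-Ob, at -0.31 to 0.51 without 1 library, turned to -0.31 without SPC library 3, to -0.07 without control library 2 and to -0.0039 in the blocked fit without both libraries numbered 1. The cause was not tested. The 20 genes of the pathway and marker lists called in either fit kept their direction in all 360 alternatives, and Cst7, the member of these lists called with group only, was at -0.82 to -0.66 without 1 library. The differences in the log2 ratios kept their sign, at 0.52 to 1.19 for Cd74 and 0.45 to 1.17 for Ctss without 1 library. Depth limits Ciita and H2-Aa, at 5 counts or fewer in each library, and H2-Eb1 and H2-Ob, at 30 or fewer.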
